A study of Homo sapiens with 6 samples.

Results

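After 6 h with the compound AI-10-49, ME-1 leukaemia cells held less mRNA of 5 genes of the eosinophil and mast cell programme. These genes, CLC, PRG2, RNASE2, MS4A2 and KIT, are called the members below. Each was found by its symbol on 1 row of its own among the 6339 rows of a deposited expression table, and all 5 passed the filter on low values. They were selected on the same FPKM values, for their lower level with the compound, so that difference is described here and not tested. ME-1 is a human myeloid leukaemia line with the inv(16) rearrangement, which joins CBFB to MYH11 and makes the fusion protein CBFβ-SMMHC. Cells of this line received AI-10-49 at 1 µM, a small molecule that binds the fusion protein and keeps it from RUNX1, or the vehicle DMSO alone, both for 6 h. Each treatment has 3 libraries from independent experiments, per the series' design text. All 6 libraries come from the same line and carry the rearrangement, and no line without it was among the samples.

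Acute myeloid leukaemia with inv(16) is known in the clinic for abnormal eosinophil precursors in the marrow. Eosinophils store cationic proteins in large granules: PRG2 encodes the major basic protein of the granule core, and RNASE2 encodes eosinophil-derived neurotoxin, a secreted ribonuclease. CLC encodes galectin-10, which forms Charcot-Leyden crystals where eosinophils break down. Mast cells and basophils carry the high-affinity IgE receptor, whose β chain is encoded by MS4A2, and mast cells depend on KIT, the receptor tyrosine kinase for stem cell factor. KIT is also carried by blood progenitors and is often mutated in core-binding factor leukaemias.

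Levels are given in FPKM, in which fragment numbers are divided by transcript length and by the mapped total, so levels of different genes can be set side by side. The table holds a selected set of rows, and 95.3% of the 6230 rows tested differed between the treatments (limma, adjusted p below 0.05). AI-10-49 replicate 2 stood apart from the other libraries. In rows where the other AI-10-49 libraries averaged 10 to 30 FPKM, its values were a median of 1.00 times that average. The median ratio was 1.11 under 10 FPKM, but 0.812 at 30 to 100 FPKM, 0.512 at 100 to 300 FPKM and 0.256 over 300 FPKM. Its highest value was 159 FPKM, against 1843 and 1877 FPKM in AI-10-49 replicates 1 and 3. With AI-10-49 all members lay below 60 FPKM in every library. Of 12 markers of inv(16) myeloid leukaemia 6 had a row (CD33, KIT, SPI1, CEBPA, LYZ and CBFB), while MPO, CD34 and MYH11 were not analysed here. For eosinophils 5 of 9 markers had a row, summing to 405 to 480 FPKM with DMSO and 89.2 to 112 FPKM with AI-10-49. Markers of other lineages were also present, as the 4 of 8 lymphoid markers with a row summed to 58.7 to 63.9 FPKM with DMSO and 25.6 to 27.5 FPKM with AI-10-49, and the 3 of 9 neutrophil markers to 43.7 to 51.3 and 31.0 to 39.8 FPKM. Sums were also lower with AI-10-49 for the 7 of 9 mast cell and basophil markers with a row, KIT and MS4A2 among them (653 to 685 against 181 to 410 FPKM). The 181 FPKM is AI-10-49 replicate 2, where TPSB2 read 39.6 FPKM, against 219 and 207 FPKM in replicates 1 and 3. The sum was also lower for the 2 of 7 erythroid markers with a row (9.90 to 10.5 against 4.72 to 5.60 FPKM). These 2 markers went opposite ways. Mean KLF1 was 9.09 FPKM with DMSO and 3.57 FPKM with AI-10-49, while mean EPOR was higher with AI-10-49, at 1.03 and 1.58 FPKM. The 1 of 6 megakaryocyte markers with a row was lower (6.13 to 6.68 against 3.08 to 3.74 FPKM). The 1 of 8 monocyte and macrophage markers with a row, MS4A7, was higher, at 0.758 to 1.02 FPKM with DMSO and 3.39 to 4.71 FPKM with AI-10-49. No marker with a row was at 0 in any library. Their part in the results was not tested. In these bulk libraries, fewer cells of a type and less RNA per cell cannot be told apart.

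The promoters of the members are shown because the genes were lower together while their upstream sequences differed widely. RefSeq start sites on build GRCh38.p14, which is not the build of the authors' alignment, were found for 4 of the 5 members, CLC, RNASE2, MS4A2 and KIT. The 250 bases before each start are printed 5′ to 3′ on the strand of the gene, with capitals marking matches to 3 kinds of motif on either strand. The RUNX letters were TGTGGT, with the alternatives TGTGGC and also TGCGGT. The GATA letters searched for were AGATAA, with the alternatives TGATAA and also AGATAG and lastly TGATAG. The E-box was CACGTG. No match overlapped another in these windows. The CLC window is chr19:39738030-39738279 on the minus strand, that of RNASE2 is chr14:20955237-20955486 on the plus strand, that of MS4A2 is chr11:60088414-60088663 on the plus strand and that of KIT is chr4:54657707-54657956 on the plus strand.
CLC: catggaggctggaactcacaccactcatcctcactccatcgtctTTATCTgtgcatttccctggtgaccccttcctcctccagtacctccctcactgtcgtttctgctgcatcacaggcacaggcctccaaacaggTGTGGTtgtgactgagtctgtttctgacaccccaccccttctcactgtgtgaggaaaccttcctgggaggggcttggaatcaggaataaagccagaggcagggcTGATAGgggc
RNASE2: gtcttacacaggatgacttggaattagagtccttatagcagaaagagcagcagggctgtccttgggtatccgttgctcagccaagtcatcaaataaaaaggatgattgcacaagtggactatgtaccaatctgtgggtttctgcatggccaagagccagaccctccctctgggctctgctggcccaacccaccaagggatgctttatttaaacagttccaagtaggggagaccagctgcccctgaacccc
MS4A2: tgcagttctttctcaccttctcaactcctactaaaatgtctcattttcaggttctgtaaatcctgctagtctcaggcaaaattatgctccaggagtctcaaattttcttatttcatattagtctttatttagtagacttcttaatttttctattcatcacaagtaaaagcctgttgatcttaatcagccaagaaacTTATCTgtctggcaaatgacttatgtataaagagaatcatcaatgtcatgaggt
KIT: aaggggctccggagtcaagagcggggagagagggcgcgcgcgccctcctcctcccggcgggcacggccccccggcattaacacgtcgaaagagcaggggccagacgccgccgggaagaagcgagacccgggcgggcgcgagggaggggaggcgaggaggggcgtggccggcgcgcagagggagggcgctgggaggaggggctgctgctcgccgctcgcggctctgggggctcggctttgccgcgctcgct
The CLC window held 1 RUNX match, TGTGGT, whose first base lies 114 bases before the start. It also held 2 GATA matches, beginning 206 and 10 bases before the start. The first of them is AGATAA on the opposite strand and is therefore printed as TTATCT. MS4A2 held 1 GATA match, also printed as TTATCT, beginning 54 bases before its start. RNASE2 and KIT held none of the 3 kinds in this window. Of 35116 RefSeq promoters of the same length, 28.6% held a RUNX match, 22.3% a GATA match and 6.3% the E-box. G and C made up 76.4% of the KIT window, with 34 CpG sites, against 55.2% and 2 sites for CLC, 50.8% and 1 site for RNASE2 and 33.6% and 0 sites for MS4A2. The median over all promoters was 58.0% and 11 sites. A match of these letters describes the window and shows no binding.

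CLC showed the largest fold difference of the 5. It measured 123, 131 and 150.1 FPKM in DMSO replicates 1, 2 and 3, and 19.5, 17.8 and 23.8 FPKM in AI-10-49 replicates 1, 2 and 3. The lowest DMSO library was still 5.17 times the highest AI-10-49 library. The means were 134.6 ± 13.98 and 20.3 ± 3.09 FPKM (SD, n = 3), 6.61-fold lower with AI-10-49 and 6.22-fold lower without AI-10-49 replicate 2. On the log2(FPKM + 1) scale, used for every log2 fold change here and understating changes of low genes, the difference was -2.67 ± 0.12 (SE). In this fit 0.0161% of tested rows, which is 1 row, had a lower log2 fold change. The share was 0.161% with 0.1 FPKM added in place of 1 FPKM, and 0.0642% under quantile normalization.

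PRG2 was the most abundant member under both treatments. Its DMSO libraries read 190.7, 189 and 229.8 FPKM and its AI-10-49 libraries 59.3, 42.9 and 57.9 FPKM. The groups did not overlap, as in 96.2% of tested rows, and AI-10-49 replicate 2 was the lowest. That library was 0.731 times the mean of the other AI-10-49 libraries for PRG2, against a median of 0.812 for rows of 30 to 100 FPKM. The means were 203 ± 23.2 and 53.4 ± 9.11 FPKM (SD, n = 3), 3.81-fold lower with AI-10-49 and 3.47-fold lower without AI-10-49 replicate 2. The log2 fold change was -1.92 ± 0.21 (SE). In the GENCODE release 29 transcripts, 44.7% of the 90-base windows of PRG2, the read length used, also occur in transcripts of AP000781.2, so reads there cannot be assigned to PRG2 by sequence alone.

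RNASE2 had closer replicates than CLC or PRG2. Its values were 77.6, 75.0 and 82.7 FPKM with DMSO and 24.0, 21.1 and 22.3 FPKM with AI-10-49. The AI-10-49 libraries lay within a few FPKM of one another and far below the DMSO libraries. Means of 78.5 ± 3.92 and 22.5 ± 1.47 FPKM (SD, n = 3) gave a 3.49-fold lower level, 3.39-fold without AI-10-49 replicate 2, and a log2 fold change of -1.76 ± 0.09 (SE).

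The remaining granule genes with a row, RNASE3 and EPX, were not members, and both fell. RNASE3, which encodes eosinophil cationic protein and is the nearest relative of RNASE2, read 8.18, 8.10 and 10.5 FPKM with DMSO and 3.20, 3.06 and 4.03 FPKM with AI-10-49 (log2 fold change -1.16 ± 0.11 SE, limma adjusted p = 5.05e-07). No 90-base window of the RNASE2 transcript occurs in RNASE3 or in any other gene's transcripts, so whole reads of that length separate them. The level of RNASE2 was 8.87 ± 0.886 times that of RNASE3 with DMSO and 6.65 ± 1.00 times with AI-10-49 (SD, n = 3). EPX, eosinophil peroxidase, went from 6.13 ± 0.243 to 4.31 ± 0.507 FPKM (log2 fold change -0.43 ± 0.08 SE, limma adjusted p = 0.000369) and so kept 70.4% of its DMSO level, against 15.1% for CLC, 26.3% for PRG2 and 28.6% for RNASE2. Among tested rows 49.1% fell and 46.2% rose, which is the background for every count of calls below. PRG3 was not analysed here.

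**Figure D1:**
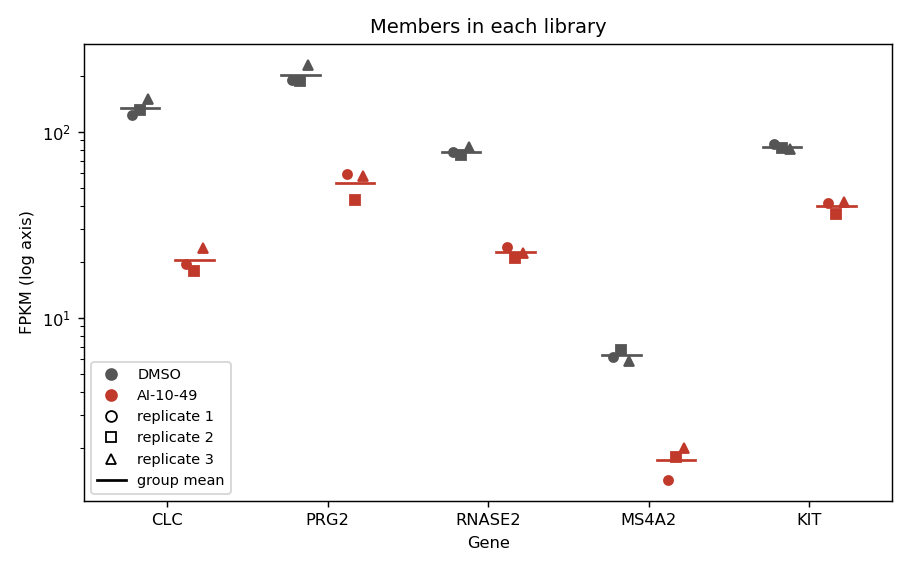
FPKM (log axis) of the 5 members in the 6 libraries, grey for the vehicle and red for AI-10-49, with point shapes for replicates and bars for group means. CLC goes from a mean of 135 to 20.3 FPKM, below KIT and beside RNASE2. The treatments overlap in none of these genes, and likewise do not overlap in 96.2% of tested rows.

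MS4A2 was the least abundant member. It measured 6.17, 6.75 and 5.89 FPKM with DMSO and 1.34, 1.79 and 2.01 FPKM with AI-10-49. The groups did not overlap, although the AI-10-49 libraries differed among themselves by more than those of RNASE2, with a coefficient of variation of 19.8% against 6.55%. The means, 6.27 ± 0.440 and 1.71 ± 0.339 FPKM (SD, n = 3), were 3.66-fold apart, and 3.75-fold without AI-10-49 replicate 2. The log2 fold change was -1.43 ± 0.10 (SE), and -1.83 with a pseudocount of 0.1 FPKM, since the value of 1 FPKM added before taking logs is close to the level of this gene.

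The other IgE receptor chains fell too. FCER1A, the α chain that binds IgE, read 27.0, 24.5 and 27.9 FPKM with DMSO and 8.94, 10.2 and 10.01 FPKM with AI-10-49 (log2 fold change -1.36 ± 0.07 SE, limma adjusted p = 4.09e-09). Its 36.7% of the DMSO level stood near the 27.3% of MS4A2. FCER1G, the γ chain, which other Fc receptors share, kept 65.5% (12.4 ± 0.518 FPKM with DMSO, 8.11 ± 1.02 FPKM with AI-10-49; log2 fold change -0.56 ± 0.08 SE, limma adjusted p = 2.94e-05). Within a library, FCER1G was 1.98 ± 0.142 times MS4A2 with DMSO and 4.83 ± 0.841 times with AI-10-49, while FCER1A was 4.25 ± 0.567 and 5.79 ± 0.841 times MS4A2 (SD, n = 3). Neither ratio overlapped between treatments, though that of FCER1A came close (highest DMSO library 4.74, lowest AI-10-49 library 4.99). The γ chain gained more against the β chain than the α chain did. MS4A2 was chosen for its lower level with AI-10-49, which favours a rise of any ratio to it. These ratios are therefore described and not tested.

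Of the 11 measured genes of the IgE receptor list other than MS4A2, 7 fell and 4 rose, and their median log2 fold change was -0.33, against -0.28 over all tested rows. PRKCD, a protein kinase C isoform, fell by 1.76 on the log2 scale. The scaffold gene GAB2 rose by 1.14 and STX4, a syntaxin of granule exocytosis, rose by 0.82. MS4A3, the neighbour of MS4A2 in the MS4A gene family, fell by 0.99 on the log2 scale (27.1 ± 2.38 FPKM with DMSO, 13.2 ± 0.401 FPKM with AI-10-49), and MS4A7, a macrophage-associated gene of that family, rose from 0.871 ± 0.132 to 4.11 ± 0.668 FPKM (log2 fold change 1.44).

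KIT showed the smallest fold difference of the 5 and the steadiest DMSO values. It measured 85.9, 81.7 and 80.8 FPKM with DMSO and 41.3, 36.3 and 42.2 FPKM with AI-10-49. Every AI-10-49 library was near the middle of the range between 0 and the DMSO level, and none overlapped. The means were 82.8 ± 2.71 and 39.9 ± 3.21 FPKM (SD, n = 3), 2.07-fold apart and 1.98-fold apart without AI-10-49 replicate 2, with a log2 fold change of -1.04 ± 0.11 (SE). That library was 0.868 times the mean of the others for KIT, close to the median of 0.812 in its FPKM range. FLT3, a receptor tyrosine kinase of the same class, rose from 11.7 ± 0.263 to 14.6 ± 0.243 FPKM (log2 fold change 0.29 ± 0.06 SE, limma adjusted p = 0.000463).

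Genes that act below KIT went both ways. Of 25 measured in a list of its ligand, adaptors, kinases and brakes, 12 fell and 13 rose, and their median was 0.24. DUSP6, a phosphatase induced by ERK signalling, fell by 1.44 on the log2 scale (61.5 ± 1.69 FPKM with DMSO, 22.0 ± 0.705 FPKM with AI-10-49). SH2B2, an adaptor that binds KIT, and PIK3CD, a catalytic subunit of PI3-kinase, fell by 1.21 and 0.97 on the log2 scale. GRB10, an adaptor of receptor tyrosine kinases, rose by 1.09. CISH, a target of STAT5, fell by 0.84, whereas CBLB, a ubiquitin ligase that limits receptor signalling, rose by 0.77. KITLG, which encodes stem cell factor, was not analysed here.

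The order of the members changed with treatment. With DMSO it was PRG2, CLC, KIT, RNASE2 and MS4A2 from high to low, and KIT and RNASE2 overlapped (lowest KIT library 80.8 FPKM, highest RNASE2 library 82.7 FPKM). With AI-10-49 it was PRG2, KIT, RNASE2, CLC and MS4A2, and RNASE2 and CLC overlapped (lowest RNASE2 library 21.1 FPKM, highest CLC library 23.8 FPKM). PRG2 and KIT were then close, since the lowest PRG2 library read 42.9 FPKM and the highest KIT library 42.2 FPKM. Ratios within a library do not depend on a single scale factor of that library. They still carry the shift with level in AI-10-49 replicate 2. PRG2 was 1.18 times KIT in that library, against 1.44 and 1.37 times in replicates 1 and 3. CLC was 1.43, 1.60 and 1.86 times KIT in the DMSO libraries and 0.471, 0.491 and 0.563 times KIT in the AI-10-49 libraries, so it changed from above KIT to below it in every library. PRG2 went from 2.46 ± 0.337 to 1.33 ± 0.132 times KIT and RNASE2 from 0.948 ± 0.0652 to 0.564 ± 0.0300 times KIT (SD, n = 3). Against CLC, PRG2 went from 1.51 ± 0.0553 to 2.63 ± 0.360 and RNASE2 from 0.586 ± 0.0410 to 1.12 ± 0.157 (SD, n = 3).

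The place of each member among the rows of its own library was lower in every AI-10-49 library than in any DMSO library. CLC exceeded 95.9% to 96.5% of rows in the DMSO libraries and 56.9% to 65.7% in the AI-10-49 libraries. KIT moved from 91.1% to 92.6% of rows down to 81.9% to 83.6%, and PRG2 from 98.2% to 98.4% down to 88.5% to 89.1%. RNASE2 moved from 91.0% to 91.5% down to 63.3% to 66.0%, and MS4A2 from 25.1% to 28.2% down to 6.17% to 9.70%. In all 5 members every AI-10-49 library lay below every DMSO library, as in 51.2% of tested rows, and the groups were separate in 1 direction or the other in 96.2%. All 5 had a log2 fold change of -1 or lower, as did 8.06% of tested rows, but KIT was close to that value. Without AI-10-49 replicate 2 KIT stood at -0.97, and under quantile normalization at -0.78, which left 4 of 5. Their median log2 fold change was -1.76, against -0.28 for all tested rows, a gap that the choice of the members sets.

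**Figure D2:**
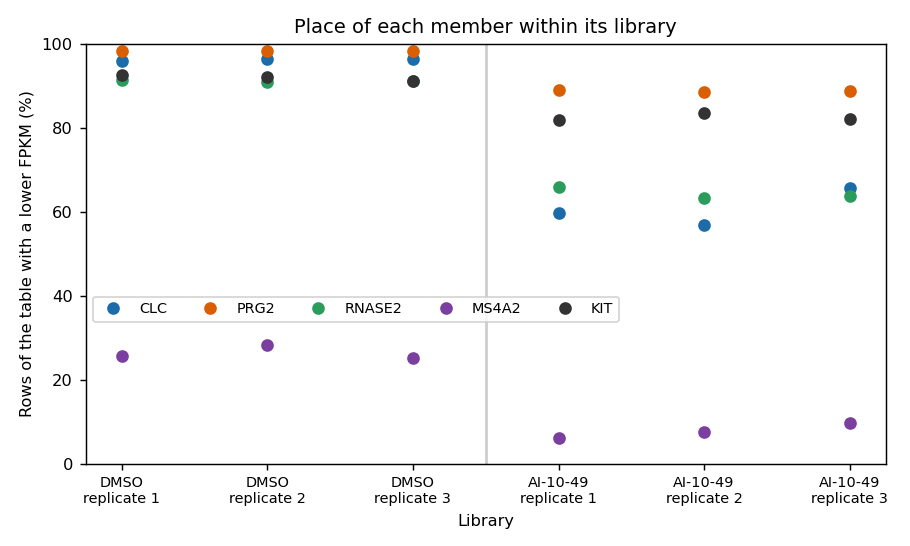
Percent of table rows with a lower FPKM (vertical axis) than each member in each of the 6 libraries, 1 colour per gene. CLC moves from 95.9% or more with DMSO to 65.7% or less with AI-10-49, whereas PRG2 stays at 88.5% or more.

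Other mast cell and basophil genes mostly fell. Of 15 measured genes for mediators and their synthesis, 11 fell, 3 rose and 1 did not pass, and the median was -0.71. HDC, which makes histamine, fell by 1.10 on the log2 scale (68.1 ± 6.99 FPKM with DMSO, 31.1 ± 1.86 FPKM with AI-10-49), and NDST1, of heparan sulfate synthesis, fell by 1.12 on the log2 scale. CPA3, mast cell carboxypeptidase, fell from 158 ± 10.7 to 84.4 ± 21.4 FPKM (log2 fold change -0.93, and -0.70 without AI-10-49 replicate 2). The tryptase genes TPSAB1 (-1.19) and TPSD1 (-1.01) fell as well. TPSB2, another tryptase, measured 302, 304 and 318 FPKM with DMSO and 219, 39.6 and 207 FPKM with AI-10-49. Its log2 fold change was -1.33 ± 0.63 (SE) and did not pass (limma adjusted p = 0.057). Without AI-10-49 replicate 2 the value shrank to -0.53 and passed (limma adjusted p = 5.64e-05), and with quantile normalization as well it was -0.21. Over 15 alternatives TPSB2 passed in 6, with values from -1.75 to -0.21 and limma adjusted p from 5.64e-05 to 0.142. TPSAB1 and TPSB2 share 785 of their 90-base windows (60.6% and 61.0% of each gene's windows are found in another gene), so their values are uncertain. RGS13, a regulator of G protein signalling found in mast cells, rose from 0.303 ± 0.133 to 5.18 ± 0.232 FPKM (log2 fold change 2.25 ± 0.10 SE).

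Surface receptors of eosinophils and basophils fell in 10 and rose in 5 of 15 measured genes, with a median of -0.71. CSF2RB, the β chain shared by the receptors for GM-CSF and other eosinophil growth factors, fell by 1.16 on the log2 scale (23.8 ± 0.858 FPKM with DMSO, 10.1 ± 0.423 FPKM with AI-10-49). The prostaglandin receptor gene PTGER2 fell by 1.21 and its relative PTGER4 rose by 0.98 on the log2 scale. CD69, an early activation antigen, rose from 20.4 ± 1.57 to 63.0 ± 11.3 FPKM (log2 fold change 1.57 ± 0.12 SE). IL1RL1, the receptor for IL-33, and SIGLEC6, a sialic acid receptor of mast cells, fell by 0.83 and 0.78. IL5RA, CCR3 and SIGLEC8 were not analysed here. Among other galectins, LGALS12 rose (1.55) while LGALS1 (-0.71) and LGALS9 (-0.65) fell, so CLC and its measured relatives did not all go one way.

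**Figure D3:**
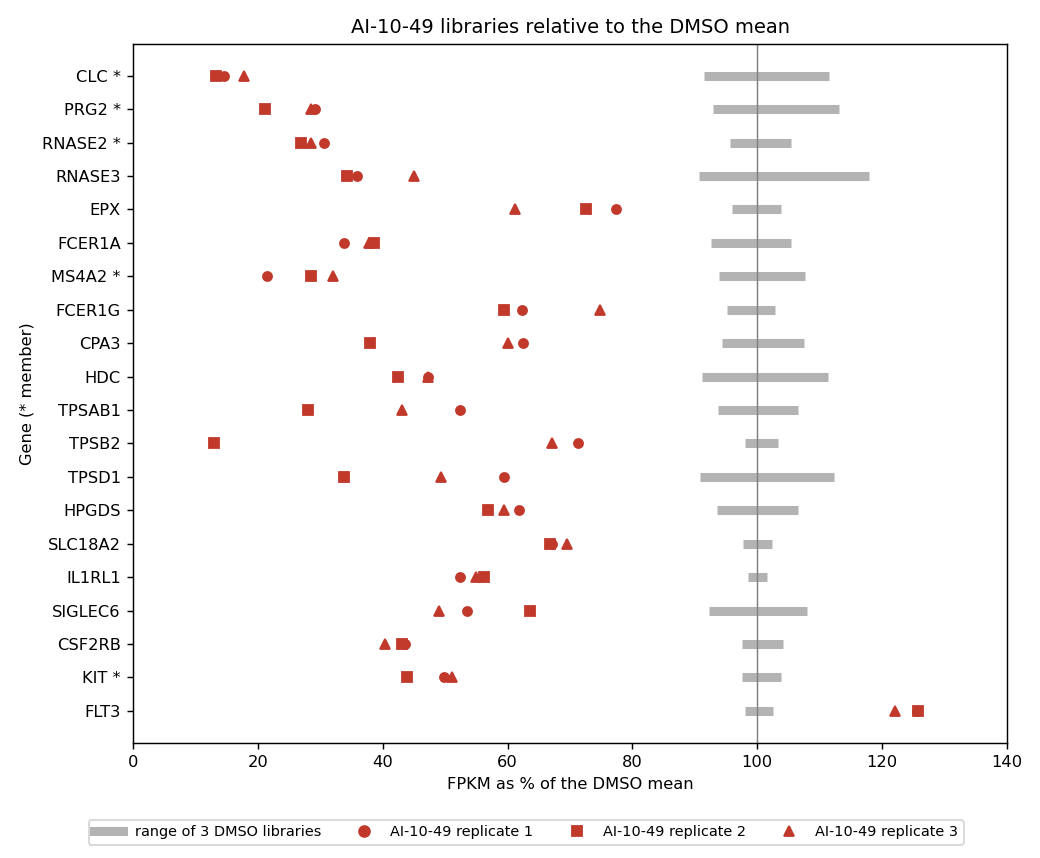
FPKM in each AI-10-49 library as a percent of the DMSO mean (horizontal axis) for 20 genes, with grey bars for the range of the 3 DMSO libraries. CLC lies between 13.2% and 17.7% and KIT between 43.8% and 51.0%, while TPSB2 reads 12.9% in AI-10-49 replicate 2 against 67.1% and 71.2% in the others.

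A list of transcription factors drawn up for these lineages also holds factors that act in others, such as GFI1B. Of its 25 measured genes 18 fell, 5 rose and 2 did not pass, and the median was -0.51. Those that fell most were GFI1B (-1.87), CEBPA (-1.58), GATA2 (-1.24) and TAL1 (-1.14). GFI1B is a transcriptional repressor that acts within the erythroid and megakaryocytic lineages. CEBPA is needed for granulocyte development, and GATA2 for mast cells and progenitors. GATA1, which directs eosinophil and mast cell fate, read 7.06, 8.50 and 10.4 FPKM with DMSO and 4.49, 6.07 and 5.24 FPKM with AI-10-49 (log2 fold change -0.62 ± 0.12 SE, limma adjusted p = 0.000328). The risers were BCL6 (1.81), TCF4 (1.57), CEBPB (1.40), NFIL3 (1.34) and TFE3 (1.07). For comparison, all 9 measured granule and lysosomal genes of neutrophils and monocytes fell, with a median of -0.57. On the log2(FPKM + 1) scale the largest falls were CTSC (-1.02) and CTSZ (-0.85). PRTN3, at 1.06 FPKM with DMSO and 0.384 FPKM with AI-10-49, kept 36.2% of its DMSO level, against 49.5% for CTSC. With a pseudocount of 0.1 FPKM the log2 fold change of PRTN3 was -1.29, against -1.03 for CTSC. Over 15 alternatives CTSC ranged from -1.12 to -0.52 and CTSZ from -0.90 to -0.67, so their order depends on the processing.

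**Figure D4:**
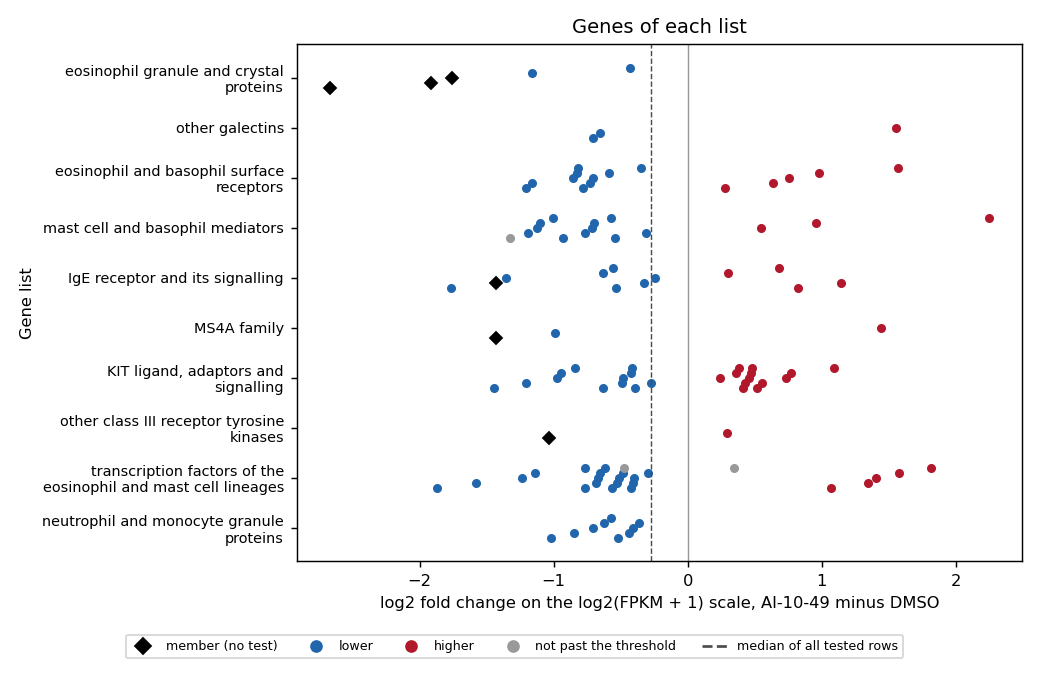
Log2 fold change (horizontal axis) of each measured gene, 1 row per gene list, with members as black diamonds, genes that fell in blue, genes that rose in red and those not past the threshold in grey. CLC at -2.67 lies farthest left, and the KIT signalling list is split into 12 lower and 13 higher.

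The rows whose pattern over the 6 libraries lay nearest to each member, by Euclidean distance between centred log2(FPKM + 1) profiles, were other genes and not fellow members. SOX4 was nearest to KIT (distance 0.0401), followed by SLC20A1 (0.0842) and CTSA (0.0883). HIC1 (0.0793), MCM4 (0.119) and NOP16 (0.137) were nearest to RNASE2, and FABP5 (0.254), SRM (0.274) and HNRNPAB (0.278) to PRG2. ZC3HAV1L (0.229), PWP2 (0.248) and LRFN1 (0.252) were nearest to MS4A2, and LRFN4 (0.447), HPDL (0.513) and PLD6 (0.525) to CLC. Between members, PRG2 and RNASE2 were closest, at 0.349, with 9 other rows nearer to PRG2. CLC and KIT were farthest apart, at 2.03. Over 6 libraries of 2 treatments this distance mainly reads the size of the difference between treatments on the log2(FPKM + 1) scale. That scale understates changes of low genes, so a near row need not have an equal fold in FPKM. HIC1 went from a mean of 4.71 FPKM with DMSO to 0.734 FPKM with AI-10-49, a larger fold than that of RNASE2 (78.5 to 22.5 FPKM). PLD6 likewise went from 10.3 to 0.985 FPKM, against 134.6 to 20.3 FPKM for CLC. SOX4 (47.4 to 22.6 FPKM) was close to KIT (82.8 to 39.9 FPKM) in fold as well.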

How the data were processed

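RNA-seq libraries of ME-1 cells (3 with DMSO, 3 with AI-10-49, 90 bp paired-end reads) were analysed from the authors' deposited table of FPKM, 1 column per library. Per the submitters' processing notes the tools were Bowtie2 2.1.0, Cufflinks 2.2.0 and Cuffdiff, on hg19; no source used here gives the rule that selected its 6339 rows. Several genes share 198 of these rows, and 23 gene labels occur on 2 rows each. Library depth is unknown, since low values showed no shared step that would give whole reads.

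log2(FPKM + 1) was computed and fitted with limma 3.58.1 in R 4.3.3 (two-sided, all 6 libraries, prior variance following the mean, differences coded as AI-10-49 minus DMSO). A row was tested where either group averaged 1 FPKM or more, which left 6230, with Benjamini-Hochberg adjustment and a threshold of 0.05; the code was tested on simulated data. Because the rows appear selected on these libraries, p-values are not those of a whole transcriptome. They set the difference between treatments against the spread between 3 libraries a group, after limma moderates that spread over all tested rows. Members and gene lists were chosen with earlier results of these data known, and members get no p-value. Any list gene could be named, and up to 4 of the largest changes per list were; the 3 nearest rows to each member were named by distance. List counts use genes with a row of their own, leaving out members. No RNase A family gene besides RNASE2 and RNASE3 was analysed here. Promoters and gene order came from RefSeq (GRCh38.p14), 90-base windows from GENCODE release 29. Python 3.11.15 and Matplotlib 3.10.9 were used for summaries and plots.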

Additional observations from a re-analysis of the deposited data

How the results depend on the processing

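Quantile normalization over the 5 libraries other than AI-10-49 replicate 2 was chosen after seeing the data. No member changed direction. Under quantile normalization, which moved the median of all rows from -0.275 to -0.0575, the log2 fold changes were -2.43 for CLC, -1.47 for PRG2, -1.59 for RNASE2 and -0.78 for KIT. Relative to that median CLC went from -2.40 to -2.37, PRG2 from -1.64 to -1.41, RNASE2 from -1.49 to -1.53, MS4A2 from -1.15 to -1.43 and KIT from -0.76 to -0.73. With that library also left out, PRG2 was -1.58, RNASE2 -1.66 and KIT -0.87. A pseudocount of 0.1 or 0.5 FPKM gave -1.83 or -1.62 for MS4A2. Leaving out single libraries gave a fold between DMSO and AI-10-49 of 6.22 to 7.22 for CLC, 3.47 to 4.03 for PRG2, 3.39 to 3.62 for RNASE2, 3.31 to 4.01 for MS4A2 and 1.98 to 2.14 for KIT. Over all 108 list genes that were not members, 72 fell and 33 rose, against 74 and 34 without AI-10-49 replicate 2 and 69 and 34 under quantile normalization. A filter at 5 FPKM left no higher gene in the MS4A family, 0 against 1, because MS4A7 was no longer tested. SPI1 (-0.47, not past the threshold) turned to 0.081 under quantile normalization and to 0.065 with AI-10-49 replicate 2 also left out, neither past the threshold. The numbers of libraries were not treated as pairs, since deviations of same-numbered libraries correlated at r = -0.15, 0.147 and 0.247 across rows. With the replicate number as a block, 6015 rows passed against 5939, and 73 list genes fell and 33 rose. Depth is unknown, so the precision of the low MS4A2 values rests on the spread between libraries.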

Other observations

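The protein-coding genes next to the members on the chromosome, 5 on each side in RefSeq order, were looked up after the data were seen. Over the 5 members 14 such genes were tested, of which 10 fell and 4 rose. All 4 tested neighbours of PRG2 fell, among them SLC43A3, the next gene, an amino acid transporter family member (116 to 60.6 FPKM, log2 fold change -0.94 ± 0.16 SE, limma adjusted p = 0.000149). Both tested neighbours of RNASE2 fell, RNASE3 and NDRG2 (-0.78). The 1 tested neighbour of CLC, EID2B, fell (-0.48), and of the 2 tested for MS4A2, MS4A3 fell (-0.99) and MS4A7 rose (1.44). Of the 5 tested neighbours of KIT, 2 fell and 3 rose. CHIC2 rose from 20.0 to 46.3 FPKM (log2 fold change 1.16 ± 0.10 SE, limma adjusted p = 2.22e-07), while KDR, the receptor kinase gene beside KIT, fell from 2.05 to 1.38 FPKM (-0.37). These counts stand against 49.1% of rows that fell and 46.2% that rose.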
